A study of Gossypium hirsutum with 2 samples.

Results

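Promoter peaks at receptor-like and disease resistance genes were examined in a single DNA affinity purification experiment with GhD53 of upland cotton (Gossypium hirsutum), a protein of the D53 type, which represses the response to the hormone strigolactone. Among genes with a called promoter peak, they were chosen by the words of their best protein hit, without use of peak height, fold or q-value. The words were set with earlier results of these data known. A gene was included where its hit named a receptor, a leucine-rich repeat (LRR), a disease or TMV resistance protein or a wall-associated protein, where it carried no transcription factor family, and where the hit named neither chloroplast nor mitochondrion. This gave 68 of the 2111 genes, and 70 of the 2183 promoter peaks, in the longer of 2 deposited peak lists. The purified group was 1 library of fiber genomic DNA fragments recovered with the tagged protein, which had been expressed in vitro. The input group was 1 library of the same kind of fiber DNA without that step. The DNA was naked, so neither chromatin nor other cotton proteins were present, and a purification without GhD53 was not among the 2 libraries. Each value below therefore comes from 1 comparison of 1 purified with 1 input library, with no spread between replicates and no test between conditions.

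Plants detect microbes, wall damage and their own peptides mainly through 2 kinds of receptor. Cell-surface receptors have an outer domain, such as leucine-rich repeats or a lectin, and usually a kinase inside the cell, where they start signalling cascades. Intracellular receptors with nucleotide-binding and leucine-rich repeat domains (NLR proteins) detect the action of pathogen effectors and trigger defence, often with local cell death. Genes of both kinds belong to large families and often lie in tandem arrays.

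Cell-surface types made up 45 of the 68 genes and intracellular NLR-type names 17. Among the cell-surface genes 21 were LRR receptor kinases by name and 7 were lectin-type receptor kinases. Another 8 were receptor kinases whose names give no outer domain or one outside the other classes. Proline-rich or extensin-type proteins had 4 genes and receptor-like proteins without a kinase 2. A wall-associated kinase, a cysteine-rich receptor kinase and a LEAF RUST 10-type receptor kinase had 1 gene each. The remaining genes were 1 F-box protein with LRR repeats, 1 other LRR protein and 4 trafficking or other receptors. Of the 17 genes put with the NLR type by their words, 2 are not receptors: GH_A08G1196, a disease resistance response protein 206-like gene of the dirigent type, and GH_D05G0630, an ENHANCED DISEASE RESISTANCE 2-like gene. NLR-type names proper thus numbered 15. How common these families are among all cotton promoters was not analysed here.

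**Figure D1:**
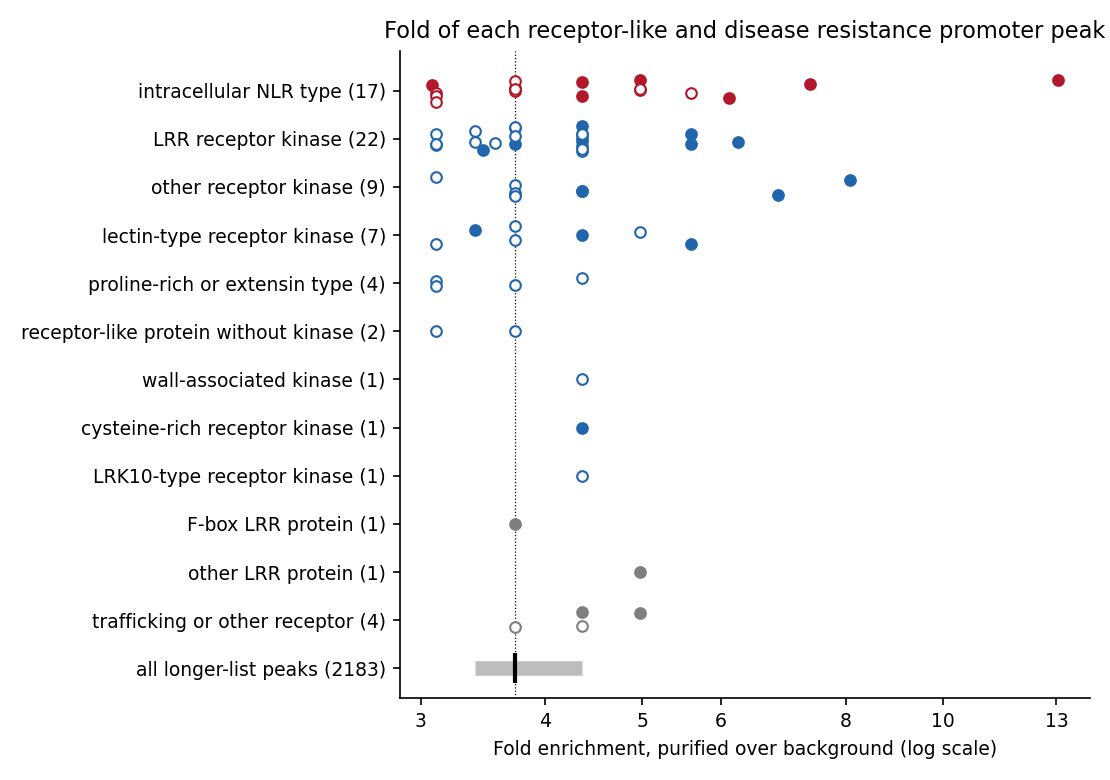
Fold enrichment of each of the 70 peaks (log axis), 1 point per peak, by class, with the number of peaks in brackets. Filled points overlap a peak of the shorter list and open points do not. The grey bar spans the quartiles of all longer-list peaks and the black tick and dotted line mark their median, 3.73. Most points sit between 3.11 and 4.98, and the 5 highest are an NLR-type gene at 13.1, a FERONIA gene at 8.09, an NLR-type gene at 7.37, and receptor kinases at 6.84 and 6.23.

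Peaks at these genes were low, as were most promoter peaks of the experiment. The pileup, which is the height of overlapping fragments at the summit in the purified library, ran from 4 to 20 with a median of 6, against a median of 5 over all longer-list peaks. The fold over background, as the authors deposited it, had a median of 4.04 (95% order-statistic interval over peaks 3.73 to 4.35) and a range of 3.08 to 13.1, against a median of 3.73 over all longer-list peaks. The background recovered from pileup and fold stood at its lowest value, 0.608, under 61 of the 70 peaks (87.1%), against 84.5% of all peaks, and its highest value among these genes was 1.53. Counting error alone is wide at such heights. The exact Poisson 95% interval was 1.09 to 10.2 for a pileup of 4, 2.20 to 13.1 for 6 and 12.2 to 30.9 for 20, so most of these promoters could not be ranked against each other at this depth.

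By pileup, 11 of the 70 peaks (15.7%) had 4 fragments, 21 (30%) had 5 and 21 (30%) had 6, while the shares of all longer-list peaks at these heights were 19.7%, 35.0% and 20.3%. None of the 70 peaks had a pileup above 20, against 116 of the 2183 peaks of the list (5.31%). Of the 70 peaks, 58 (82.9%) had a q-value of at most 0.05, where the background over all peaks was 79.0%. A q-value of at most 1e-05 was found for 6 (8.57%, Wilson 95% interval 3.99 to 17.5), where the background was 10.4%. A fold of 5 or more was reached by 10 (14.3%), where the background was 12.0%. The shares past these q-value and fold limits lay close to the background. The shares at single pileup heights are given without intervals, and no difference was tested. All longer-list peaks include those of genes whose hits name chloroplast or mitochondrion, which the choice left out.

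**Figure D2:**
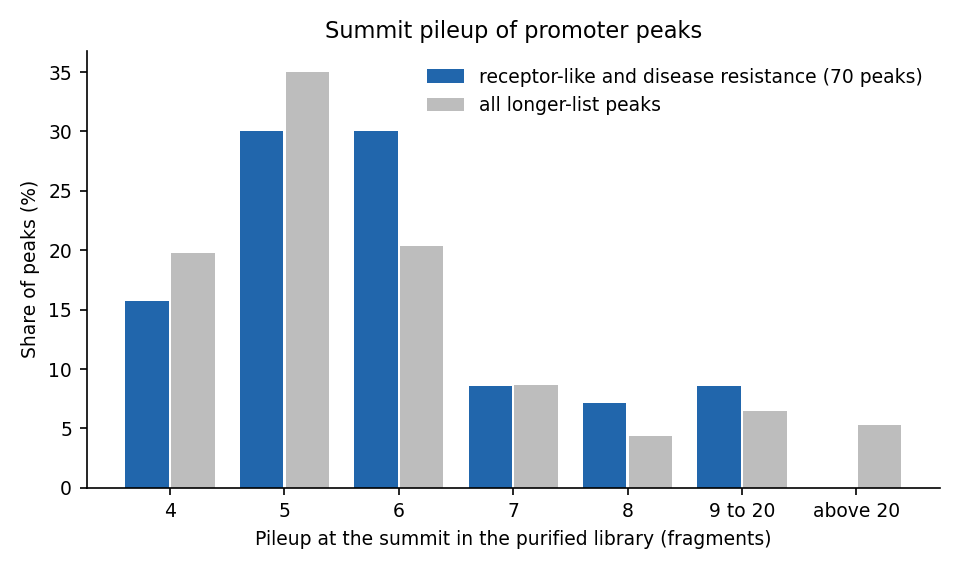
Share of peaks (%) at each summit pileup in the purified library, for the 70 receptor-like and disease resistance peaks (blue, left bars) and all 2183 longer-list peaks (grey, right bars). The blue bars are at 30% for pileups of 5 and 6, and no blue bar stands above 20 fragments.

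Of the 68 genes, 32 also had a peak in the shorter list, or 47.1% (Wilson 95% interval 35.7 to 58.8), where the background over all longer-list genes was 34.3%. The lists were called from the same libraries, and 30 of the 32 overlapping peaks had identical summit, pileup, fold and q-value in both, so this share describes the calling and is no second measurement. By height, the share of overlapping peaks was above that of all peaks at some heights and below it at others. At a pileup of 6, 14 of 21 receptor peaks (66.7%) overlapped a shorter-list peak, against 41.0% of all peaks of that height. At a pileup of 5 these shares were 23.8% (5 of 21) and 13.5%, and at 7 and 8 fragments 63.6% (7 of 11) and 83.2%. The shares by height rest on few receptor peaks and are given without intervals, and no difference was tested. The receptor peaks of pileup 6 had a median length of 195 bp, against 177 bp over all peaks of that pileup. No peak with a pileup of 4, of any gene, was in the shorter list.

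The NLR-type genes held the highest fold. GH_A01G0185, a probable disease resistance protein At5g63020, belongs to a coiled-coil NLR family in Arabidopsis. Its peak on chromosome A01 (1629115 to 1629470), 1233 bp upstream of the start site, had a pileup of 20 in the purified library against a background of 0.608, which is 13.1-fold with a −log10 q of 19.99. This was the tallest of the 70 peaks. GH_A11G3172 is named for RRS1, which in Arabidopsis pairs with another NLR and carries a WRKY domain as a decoy for effectors. The model of the cotton gene spans only 931 bp and, by the choice of genes, carries no transcription factor family. It had a pileup of 12 at 1712 bp upstream and 7.37-fold, with a −log10 q of 7.66. GH_D11G3801, a TMV resistance protein N-like gene on an unplaced D11 scaffold, had a pileup of 9 at 576 bp upstream and 6.11-fold. N is the tobacco receptor for tobacco mosaic virus, with a TIR domain at its start. These 3 peaks were the NLR-type peaks with a q-value of 1e-05 or lower. Without the 2 genes that are not receptors, NLR-type peaks had a median fold of 4.35 (order-statistic interval 3.11 to 4.98, 15 peaks), against 3.73 (3.73 to 4.35, 47 peaks) at the cell-surface genes. These intervals overlap, and the difference was not tested.

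N-like names were the most frequent single description, with 5 genes. Besides GH_D11G3801 they were GH_D11G3406 (pileup 7, 4.98-fold), GH_D09G0847 (pileup 6, 4.35-fold), GH_A10G0248 and GH_A11G3396 (both pileup 4, 3.11-fold). Only the first 3 of these 5 genes were in both lists. A further 3 genes carry the name RGA3, given to NLR proteins of nightshades: GH_A03G0211 had a pileup of 7 and 4.98-fold, GH_A03G0168 a pileup of 5 and 3.73-fold, and GH_D11G3652 a pileup of 4 and 3.11-fold. GH_D10G2593, named for the downy mildew receptor RPP8 of Arabidopsis, had a pileup of 7 and 4.98-fold at 1643 bp upstream. GH_D05G2860 (At3g14460) had 4.35-fold. The At1g61300 genes GH_D05G3701 and GH_A11G3232 had 3.73-fold and 3.08-fold. The value of GH_A11G3232 was the lowest of the 70. It had a pileup of 6 on a raised background of 1.27, where other peaks of that pileup on the lowest background had 4.35-fold. The peak of GH_A02G0106 (At4g27190-like, 3.73-fold) was in an intron of that gene, 680 bp past its start, and counts as a promoter peak through the neighbouring gene GH_A02G0105. Of the non-receptors, the dirigent-type gene GH_A08G1196 had a pileup of 8 and 5.60-fold but no peak in the shorter list, and GH_D05G0630 had a pileup of 5 and 3.73-fold.

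Genes with LRR receptor kinase names, the largest class, ranged from 3.11-fold to 6.23-fold. The class follows the wording of the hit, so it leaves out the At3g47110 genes described below. Those had 6.84-fold and 4.35-fold. Of the 21 genes in the class, 3 had a fold of 5 or more, 8 lay between 4 and 5, and 10 were below 4. Of these genes 11 were in both lists. The highest of the class was GH_D10G2703, one of a pair of genes named At3g47570 after an Arabidopsis relative of the EFR receptor. Its pileup was 10, 1100 bp upstream, on chromosome D10 (65961134 to 65961392), with 6.23-fold and a −log10 q of 5.44. GH_A09G0233 (At1g35710) and GH_D07G2290 (At5g63710) both had a pileup of 8 and 5.60-fold. The peak of GH_D07G2290, at 72 bp upstream, was the nearest to a start site among the 70. The other gene named At5g63710, GH_D07G1840, had a pileup of 5 and 3.73-fold at 1413 bp upstream.

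Several LRR kinases with known ligands in other plants were at the common low heights. GH_A04G0175 is named for EFR, the Arabidopsis receptor of bacterial elongation factor Tu. It had 2 peaks 649 bp apart, with pileups of 6 at 1183 bp and 5 at 1832 bp upstream (4.35-fold and 3.73-fold). GH_A13G2299, named for the flagellin receptor FLS2, had a pileup of 6 on a raised background, and 3.47-fold. GH_D05G0514, named for TDR, the receptor of the TDIF peptide that keeps vascular stem cells dividing, had 4.35-fold at 1399 bp upstream. GH_D06G1420, a TMK3-type kinase of a family linked to auxin signalling in Arabidopsis, also had 4.35-fold. GH_D07G0267, named for the HAESA-like kinase HSL1, had 3.73-fold. GH_D13G0570, of the BAK1 co-receptor type, and GH_A05G0098, a brassinosteroid LRR receptor kinase-like gene, each had a pileup of 4 and 3.11-fold with a −log10 q of 0.917, so neither passed a q-value of 0.05. The 4 genes named At4g08850, the peptide receptor MIK2 in Arabidopsis, ran from 3.40-fold to 4.35-fold, and 1 of them was in both lists. One of these, GH_D09G2636, had a pileup of 8 on the highest background of the 70 peaks, 1.53, which left it at 3.56-fold. The LRR kinase genes named At5g63930 (GH_D11G2755), At3g14840 (GH_D11G3298) and At1g05700 (GH_A09G0917) had 4.35-fold, 3.73-fold and 3.40-fold.

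Among receptor kinases outside the LRR names, GH_A11G2767 was the highest. It is named for FERONIA, a malectin-domain receptor of RALF peptides that monitors the cell wall and controls cell growth. It had 2 peaks 663 bp apart. The peak on chromosome A11 (104497898 to 104498165), 1325 bp upstream, had a pileup of 12, 8.09-fold and a −log10 q of 8.82. The other, 1988 bp upstream, had a pileup of 5 and 3.73-fold, and was the farthest within 2000 bp. The other 2 FERONIA genes had low peaks in the longer list alone, with pileups of 5 (GH_D13G0879) and 4 (GH_A13G0843). GH_D03G0244, named At5g39020 after a gene of the same malectin-type family, had a pileup of 6 and 4.35-fold. GH_A10G0390 and GH_A01G0474 share the name At3g47110, an LRR kinase in Arabidopsis although the hit's wording does not say so. GH_A10G0390 had a pileup of 10 at 1382 bp upstream and 6.84-fold with a −log10 q of 6.38, and GH_A01G0474 a pileup of 6 and 4.35-fold. The remaining 2 genes, GH_A05G0585 (At1g80640) and the inactive receptor kinase GH_D02G1111 (At5g58300), had 3.73-fold.

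Lectin-type receptor kinases, whose outer domain resembles sugar-binding proteins, had 7 genes and 3 of them in both lists. GH_A01G2276, a G-type lectin kinase named RLK1, had a pileup of 8 and 5.60-fold, and its peak, 771 bp upstream, was also in the promoter of the neighbouring gene GH_A01G2275. Of 3 genes named IX.1, GH_A09G1495 had 4.98-fold, GH_D13G0495 had 4.35-fold and GH_A11G2201 had 3.40-fold at 135 bp upstream. The SD2-5 genes GH_D10G0438 and GH_D13G0087 both had 3.73-fold. GH_D13G0185, a VIII.1-like gene, had a pileup of 4.

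Classes tied by name to the cell wall were small, and none of their folds exceeded 4.35, which is also the upper quartile of all longer-list peaks. Of the 4 proline-rich or extensin-type genes, 0 were in both lists and 2 had a pileup of 4. PERK kinases carry an outer stretch like that of extensin, a structural wall protein. The PERK1 genes GH_A11G1610 and GH_A07G0061 had 4.35-fold and 3.11-fold, and the PERK9 gene GH_A13G0518 had 3.73-fold. GH_A03G1430, an LRR extensin-like protein, which is a wall protein without a kinase, had 3.11-fold. The wall-associated receptor kinase-like gene GH_D10G1454, of a family that binds pectin, had a pileup of 6 and 4.35-fold at 1634 bp upstream in the longer list alone. GH_D06G1404, a cysteine-rich receptor-like kinase gene, and GH_D07G0800, of the LEAF RUST 10 type, also had 4.35-fold, the first 289 bp and the second 1361 bp upstream. Receptor-like proteins, which have outer repeats but no kinase, were GH_D02G0216 at 3.73-fold and GH_D05G3990 at 3.11-fold, both in the longer list alone.

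The other 6 genes matched the words but fell in neither the cell-surface nor the NLR-type classes. GH_A05G3317, named for UVR8, the photoreceptor of ultraviolet-B light, had a pileup of 7 and 4.98-fold at 1049 bp upstream. GH_A10G0359 is named for an endoplasmic reticulum retention receptor, which returns resident proteins from the Golgi, and had 4.35-fold. GH_A13G0455, a vacuolar-sorting receptor, had 4.35-fold, and GH_D05G2780, of a RING-domain type also linked to vacuolar sorting, had 3.73-fold. GH_D01G0620, an F-box protein with LRR repeats, had 3.73-fold, and GH_A05G3689, an LRR-containing protein with the name of a slime mould gene, 4.98-fold.

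Along the promoter, 68 of the 70 peaks were centred within 2000 bp upstream, at a median of 1087 bp (order-statistic interval 849 to 1294), against 1186 bp over all 2099 such peaks. The 1000 to 1500 bp stretch held the most, 25 peaks (36.8%, Wilson 95% interval 26.3 to 48.6), against 29.4% of all peaks. The farthest 500 bp held 14 (20.6%, 12.7 to 31.6), against 31.4% of all peaks, just inside that interval. Over the peaks of all other genes the share was 31.8%, just outside it. The difference was not tested. The nearest 500 bp held 11 (16.2%, 9.28 to 26.7), against 13.8%. Of the peaks outside the window, that of GH_D07G0325, an LRR receptor kinase named At2g24230, was centred 2079 bp upstream and was the longest of the 70 at 477 bp, and that of GH_A02G0106 was downstream.

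The peaks within 500 bp of the start site included 6 of the lowest height, a pileup of 4, and 5 that were taller. Of the 11 peaks with a pileup of 4, 6 lay within 500 bp upstream (54.5%, Wilson 95% interval 28.0 to 78.7), against 75 of 416 such peaks of all genes (18.0%). Of the 57 receptor peaks with a pileup of 5 or more, 5 did (8.77%, 3.81 to 18.9), against 12.8% of all. The 6 were GH_A05G0098, GH_A10G0248, GH_D11G3652, GH_D05G3990, GH_A11G3396 and GH_A07G0061. This split was noticed in the values and was not tested. Of the 6 peaks with a q-value of 1e-05 or lower, 5 lay between 1000 and 2000 bp upstream and that of GH_D11G3801 lay nearer.

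**Figure D3:**
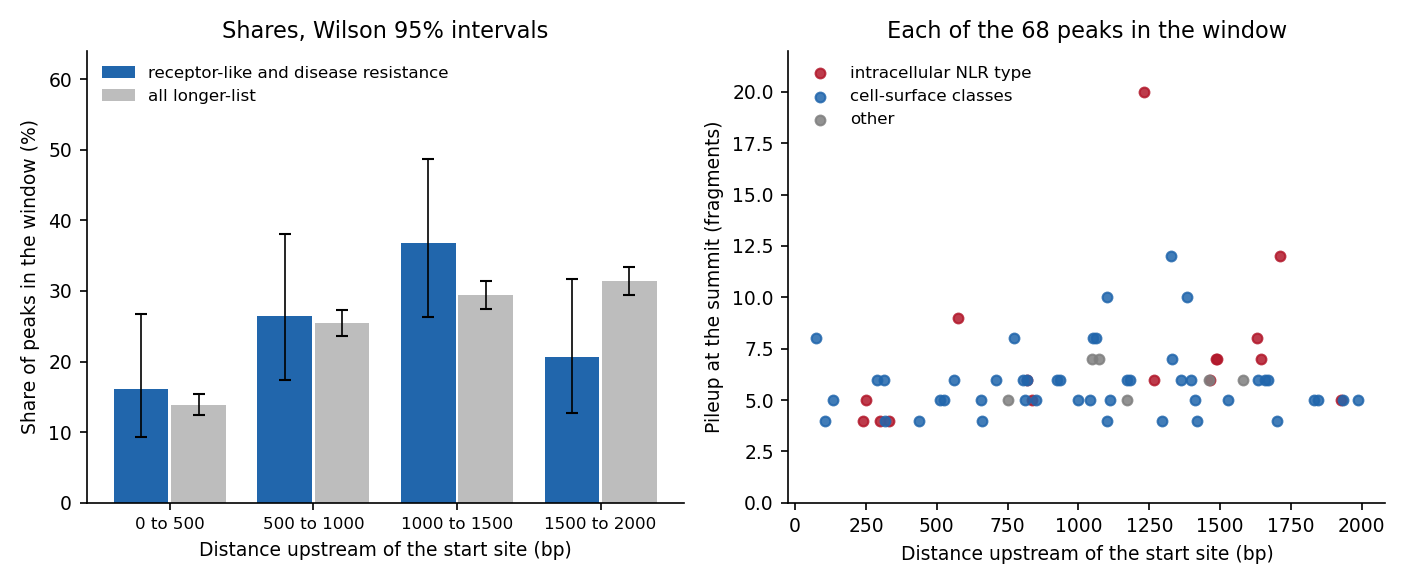
Left, share (%) of the peaks centred within 2000 bp upstream in each 500 bp stretch, for receptor-like and disease resistance genes (blue, left bars, 68 peaks) and all longer-list genes (grey, right bars, 2099 peaks), with Wilson 95% intervals that cover counting error only. Right, summit pileup in fragments against distance upstream for each of the 68 peaks, coloured by receptor type. The blue share is 20.6% in the farthest stretch, and 5 of the 6 tallest points lie beyond 1000 bp.

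The 68 genes were spread over 21 of the 26 chromosomes, with 31 on A and 37 on D chromosomes when genes on scaffolds are counted by their identifiers. The A share was 45.6% (Wilson 95% interval 34.3 to 57.3), against 49.5% of all longer-list genes. LRR receptor kinase names had 6 genes on A and 15 on D chromosomes, and NLR-type names 9 and 8. By number of genes chromosome D10 came first with 7, followed by A11 and D05 with 6 each. As a share of a chromosome's longer-list genes D10 was again first, with 7 of 79 (8.86%), against 68 of 2111 over the whole list. Next came D13 with 5 of 77 (6.49%), D05 with 6 of 105 (5.71%) and D07 with 5 of 88 (5.68%). They were followed by D11 with 5 of 94 (5.32%) and A11 with 6 of 114 (5.26%). No such gene had a peak on A06, A12, D04, D08 or D12, which carried 62 to 100 genes with a peak each. The counts per chromosome are small and are given without intervals, and no difference between chromosomes was tested.

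**Figure D4:**
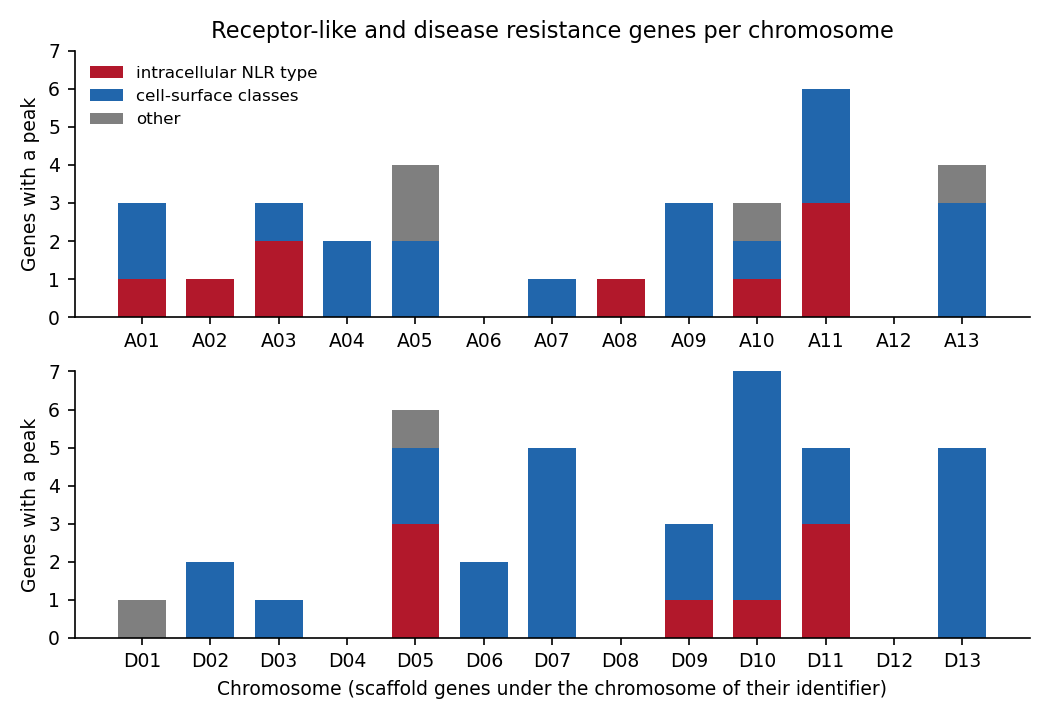
Number of receptor-like and disease resistance genes with a longer-list peak on each A (top) and D (bottom) chromosome, stacked by type. D10 has 7 genes, of which 6 are cell-surface types, and A11 has 6, of which 3 are NLR-type.

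Close neighbours were few. With peak centres 500 kb or less apart, 7 of the 68 genes fell into 3 groups. On D10 the At3g47570 genes GH_D10G2698 (pileup 6, 4.35-fold) and GH_D10G2703 (pileup 10, 6.23-fold) had peaks 62.7 kb apart and stood 5 gene numbers from each other, with the inactive LRR kinase GH_D10G2737 (IMK2, pileup 4, 3.11-fold) 317 kb further on. On A03 the RGA3 genes GH_A03G0168 and GH_A03G0211 had peaks 478 kb apart, and stood 43 gene numbers from each other. On A10 the endoplasmic reticulum receptor gene GH_A10G0359 and the kinase gene GH_A10G0390 had peaks 321 kb apart. Only the D10 and A03 groups join genes of a single class. Any other longer-list gene lay within 500 kb of 51 of the 68 genes (75%), against 72.0% of all genes in the list. With a limit of 1000 kb there were 7 groups with 16 genes, and any other longer-list gene lay that near to 89.7% of the 68 genes, against 86.4% of all. This limit brought in the HSL1 and At2g24230 kinases of D07 (545 kb apart) and the lectin-type kinases GH_D13G0087 and GH_D13G0185 of D13 (772 kb apart). It also joined genes of different classes: the TDR kinase and the EDR2-like gene of D05 (909 kb apart), the cysteine-rich and TMK3-type kinases of D06 (649 kb apart), and the N-like gene GH_A10G0248 with the A10 group (931 kb from its nearest peak).

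**Figure D5:**
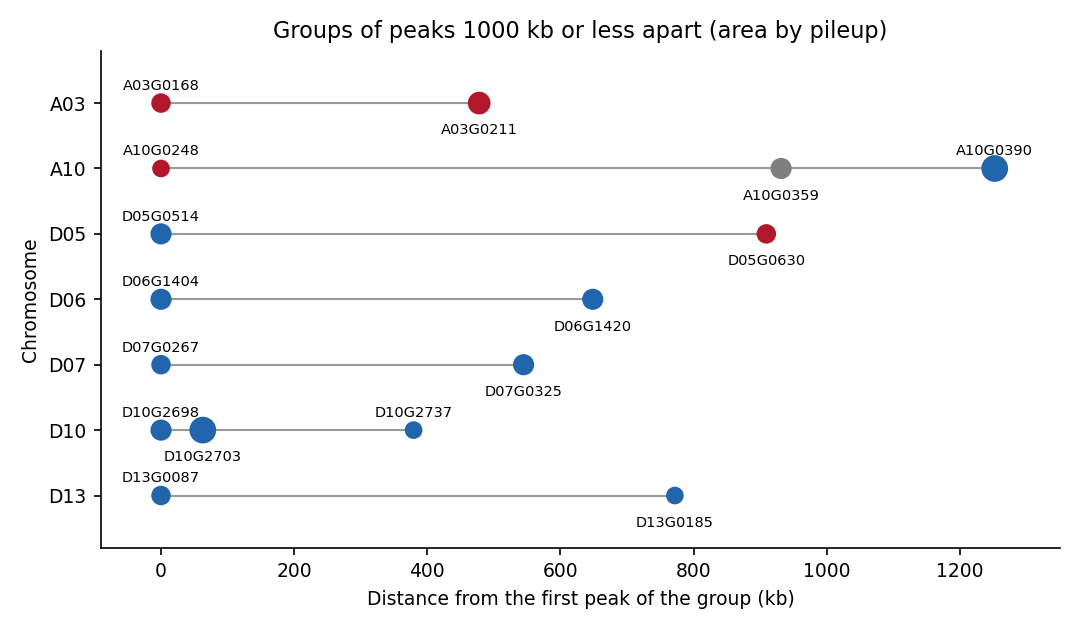
Groups of receptor-like and disease resistance genes whose peaks lie 1000 kb or less from the next one, 1 line per group, placed by distance in kb from the group's first peak. Point area follows pileup and colour follows type (red NLR-type words, blue cell-surface, grey other). The closest peaks are those of GH_D10G2698 and GH_D10G2703, 62.7 kb apart.

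Of the 31 A genes, 2 had a D gene among the 68 with the same description on the chromosome of the same number (6.45%, Wilson 95% interval 1.79 to 20.7). Over all A genes of the longer list with an informative description the share was 20 of 629 (3.18%), which is inside that interval. The FERONIA genes GH_A13G0843 and GH_D13G0879 had 3.11-fold at 1417 bp and 3.73-fold at 512 bp upstream. The N-like gene GH_A11G3396 (3.11-fold, 331 bp upstream) matched GH_D11G3406 (4.98-fold, 1488 bp upstream) as well as GH_D11G3801. In each pair the A gene had the lowest pileup of the list, 4, and the peaks were at different distances from the start site. In all, 12 descriptions were shared by 2 or more of the genes, covering 32 of the 68. Within a description folds differed: at FERONIA names they ran from 3.11 to 8.09, at N-like names from 3.11 to 6.11.

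Annotation other than the protein hit was sparse for these genes. A GO entry was given for 19 of the 68, and 15 of the 19 had the plasma membrane term (78.9%), against 18.0% of the 915 annotated genes of the list. Signal transduction was given for 9 (47.4% against 8.20%) and defence response for 6 (31.6% against 6.45%). The KEGG plant-pathogen interaction map held 8 of the 9 genes that had any map (88.9%), against 29 of 507 such genes of the whole list (5.72%). These terms derive from protein similarity, as do the words that chose the genes, so they describe the choice. The gene models were longer than those of the list in general, with a median span of 2659 bp against 1641 bp. Fewer of them spanned less than 1000 bp, 14 of the 68 (20.6%), against 35.3% of all genes in the list. Among the 14 were GH_A13G0518 (355 bp), GH_A01G2276 (490 bp) and GH_A11G3172 (931 bp), and the model of the FERONIA gene GH_A11G2767 spanned 1099 bp. Whether such short models hold complete genes was not examined. Distances upstream are counted from the start of the models as deposited. For 19 of the 68 genes the best hit was a protein of the RefSeq cotton annotation (Gossypium_hirsutum_v2.1), matched by exact accession and version, and in all 19 that protein's gene was on the chromosome of the same name.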

How the data were processed

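DNA affinity purification sequencing gave 1 purified and 1 input library of fiber DNA, grouped by the fraction in the labels. Tools listed in the submitters' processing notes are deepTools 2.5.4, BWA and ChIPseeker. No source used here gives the peak caller, its thresholds or the genome build. Coordinates are those of the files. Columns, per the file headers, are a pileup signal, a fold enrichment (ratio), and −log10 p-values and q-values, all deposited by the authors for peaks called for the purified against the input library with no per-replicate peaks. Library totals are unknown, so depth is described by pileup.

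Genes, classes and words were chosen with earlier results of these data known. The background was computed as (pileup + 1) / fold − 1, and a Poisson tail above the pileup on it gave the deposited −log10 p of all 70 peaks to within 8.04e-06. Each gene took its first matching class. Names such as HSL1, TMK3 and TDR were counted as LRR kinases. Named by rule were the 10 highest folds, the 4 highest per class, and genes in groups of 500 kb or in A and D pairs. Others were named with their values known. Intervals are Wilson, exact Poisson or, for medians, order-statistic at 95%, and cover counting error only. With 1 library per fraction no test was run. Alternatives varied the word rule, q-value, list, overlap and group distance. The grouping step was tested on simulated positions with known groups. The selection step was only checked with the hits shuffled over the real peaks, where its count stays the same by construction. Python 3.11.15, pandas 2.3.3 and scipy 1.17.1 were used. Sequences were not used here.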

Additional observations from a re-analysis of the deposited data

How the results depend on the processing

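Of 34 alternative values, 27 stayed within the counting interval of the reported value, or within 1.5 times it for counts. Some of these could hardly move. Taking 1 peak per gene leaves a share counted by gene unchanged, and limiting to the gene's own promoter kept 69 of the 70 peaks. Among peaks with a q-value of 1e-05 or lower the median fold was 7.10 and the median pileup 11 at receptor-like and disease resistance genes, against 6.23 and 17 over all such peaks, a shift that the stricter choice makes by construction. The number of genes in groups was 2 at 200 kb, 16 at 1000 kb, 4 within 20 gene numbers and 2 with NLR-type names only, against 7 at 500 kb. With a q-value of 0.05 or lower, 0 A genes had a D partner, since both A genes of the reported pairs had a pileup of 4. The direction of the median fold against all peaks depended on the choice: it was 3.73 without the F-box protein and the trafficking or other receptors, equal to that of all peaks, and 4.35 in the shorter list, against 4.98 over all peaks there. The share of genes in both lists was 46.0% to 55.4% over its alternatives, the highest with peaks of q-value 0.05 or lower only, where it was 43.3% over all genes. The limit to a q-value of 0.05 and the recount of NLR-type names (15 in place of 17) were chosen after seeing the data. No paired analysis was possible because each fraction had 1 library, and for the same reason no library could be left out. Pileups of 4 to 6 fragments limit any ranking of single promoters.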

Other observations

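Outside the word rule, 4 genes of the longer list had a receptor or disease resistance entry in the deposited KEGG column while their best protein hit named none. GH_D05G1582 carried the entry of the PYR/PYL abscisic acid receptors, soluble proteins that inhibit protein phosphatases when they bind the hormone, and had a pileup of 5 and 3.73-fold at 178 bp upstream. GH_A01G1583, GH_D06G1650 and GH_D11G3544 carried the entry of RPS2, an Arabidopsis NLR against Pseudomonas. Their pileups were 5, 5 and 6, and their folds 3.73, 3.73 and 4.35. These 3 peaks lay near the far end of the promoter window, at 1973, 1912 and 1947 bp upstream. The best hit of GH_A01G1583 named a mitochondrial protein, so its KEGG entry and its hit disagree.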
